A study of Mus musculus with 12 samples.

Results

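The 10 genes described here encode the machinery that loads peptides onto major histocompatibility complex (MHC) class I molecules: the classical heavy chains H2-K1 and H2-D1, the light chain B2m, the peptide transporter subunits Tap1 and Tap2, the loading chaperone Tapbp (tapasin), the inducible proteasome subunits Psmb8, Psmb9 and Psmb10, and Nlrc5, the transcriptional activator of class I genes. They were chosen by name, as the rows of both deposited count tables with these symbols, out of 24421 genes in the tables. All 10 were present, and all 10 passed the filter on low counts that kept 12164 genes for testing.

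The study sequenced polyA RNA of bone marrow-derived macrophages, primary macrophages grown from marrow, taken from male C57BL/6J mice aged 8 weeks. Its 4 groups held 3 libraries each: LPS-treated cells (M1) with siEhd1, LPS-treated cells (M1) with siControl, resting cells (M0) with siEhd1, and resting cells (M0) with siControl. Lipopolysaccharide (LPS) is a bacterial cell wall component sensed by Toll-like receptors, and Ehd1 encodes a protein of endocytic recycling. The small interfering RNA (siRNA) lowers the transcript and does not delete the gene, and the siControl cells also went through transfection. The dose and time of LPS, the siRNA sequences, and whether the libraries of a group came from separate mice or cultures, are not given in the sources. Each p-value therefore reflects only how far these libraries vary, and that variation may be technical.

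Class I molecules show peptides from the cell's own proteins to CD8 T cells. Proteasomes cut proteins into peptides, the TAP1-TAP2 transporter carries the peptides into the endoplasmic reticulum, and tapasin holds the empty heavy chain and beta-2 microglobulin at the transporter until a peptide fits. Interferons, and LPS through the interferon it elicits, are known to raise these genes together: NF-kappaB and interferon regulatory factors bind their promoters, NLRC5 acts at a conserved promoter module with factors that bind cyclic AMP response elements and CCAAT boxes, and the inducible subunits Psmb8, Psmb9 and Psmb10 replace Psmb5, Psmb6 and Psmb7 to form the immunoproteasome.

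The genes lie on 3 chromosomes of the GRCm38 assembly. On chromosome 17, in the MHC, the GENCODE M21 annotation places Tapbp at chr17:33915899-33929292 (plus strand), H2-K1 at chr17:33996017-34000347 (minus), Psmb9 at chr17:34181987-34187764 (minus), Tap1 at chr17:34187553-34197225 (plus), Psmb8 at chr17:34197721-34201454 (plus), Tap2 at chr17:34203527-34216321 (plus) and H2-D1 at chr17:35262730-35267499 (plus). B2m lies at chr2:122147686-122153083 (plus), and on chromosome 8 Nlrc5 lies at chr8:94434356-94527272 (plus) and Psmb10 at chr8:105935735-105938444 (minus). Tap1 and Psmb9 stand head to head, and their exons overlap by 212 bases on opposite strands, which is 3.87% of the exon bases of Tap1 and 5.79% of those of Psmb9. Exon bases shared with other annotated genes made up 29.0% of Tapbp, 18.5% of Tap2, 14.7% of Psmb8 and 0.918% of Nlrc5. The strand setting of the counting is not given in the sources used, so how reads from such stretches were assigned is not known. For Tapbp the overlapping genes include Zbtb22 on the same strand, which a strand setting would not separate. A share of exon bases is not a share of reads, and the share of reads affected was not measured.

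Promoter sequences from RefSeq (GRCm38.p6, 250 bases before to 50 after the RefSeq gene start) matched 8 of the 10 genes, all but Tap2 and Nlrc5. The RefSeq start lay 3579 bases from the GENCODE start for Tapbp, 474 for Psmb8, 434 for Psmb9 and 364 for H2-D1. For these genes the window does not cover the GENCODE start given above. The distance was 52 bases or fewer for the rest. The stretches below are shown because the 3 genes that make up the class I molecule itself each carry all 4 kinds of element marked, with TGACG ahead of ATTGG. The stretch that the windows of Tap1 and Psmb9 share carries 2 of the 4. It lies before the GENCODE start of Tap1 and inside the GENCODE span of Psmb9. Capitals mark the NF-kappaB consensus, the interferon response core (AANNGAAA), the half-site of the cyclic AMP response element (TGACG) and the inverted CCAAT box (ATTGG), each on either strand. H2-K1 is chr17:34000351-34000466 (minus strand), H2-D1 is chr17:35262915-35263030 (plus), B2m is chr2:122147542-122147646 (plus), and the stretch shared by Tap1 and, on the other strand, Psmb9 is chr17:34187326-34187482 (plus), all 5′ to 3′.
H2-K1: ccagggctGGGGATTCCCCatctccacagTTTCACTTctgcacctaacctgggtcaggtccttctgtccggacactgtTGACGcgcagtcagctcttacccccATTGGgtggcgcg
H2-D1: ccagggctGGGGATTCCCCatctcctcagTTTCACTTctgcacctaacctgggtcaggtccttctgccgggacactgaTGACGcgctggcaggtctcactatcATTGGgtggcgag
B2m: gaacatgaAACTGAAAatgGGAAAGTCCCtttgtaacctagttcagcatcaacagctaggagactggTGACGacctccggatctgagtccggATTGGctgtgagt
Tap1: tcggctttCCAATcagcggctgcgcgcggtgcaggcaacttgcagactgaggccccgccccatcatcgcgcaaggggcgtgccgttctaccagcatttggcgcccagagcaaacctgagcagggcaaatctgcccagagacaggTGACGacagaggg

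In H2-K1, H2-D1 and B2m a TGACG was followed 10 to 30 bases later by an ATTGG, an arrangement found in 244 of 32851 mouse promoters of the same length (0.743%). The same 3 held the interferon response core, found in 23.9% of all promoters, and the NF-kappaB consensus, found in 4.51%. ATTGG was present in H2-K1, H2-D1, B2m, Tap1, Tapbp and Psmb9 (37.4% of all promoters), and TGACG in H2-K1, H2-D1, B2m, Tap1 and Psmb9 (20.8%). A further motif searched for, the gamma-activated site (TTCNNNGAA), was present in 1 of the 8, Psmb8 (8.3% of all promoters). The stretches of H2-K1 and H2-D1 are alike in most letters, so their matches are not separate observations. The motifs were chosen after the promoters had been read, and a match describes the letters in the window, not a bound site.

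Library totals ran from 18572725 to 22545272 counts, with 14119 to 14753 genes detected. Levels are given as CPM, counts divided by library sizes scaled with TMM factors, and a gene is called where the edgeR quasi-likelihood test gives a Benjamini-Hochberg adjusted p under 0.05 over all 12164 tested genes. Ehd1 itself stood at 282, 319 and 304.5 CPM in LPS-treated siEhd1 cells, against 678, 631 and 550.2 CPM in LPS-treated siControl cells (log2 fold change -1.04, SE 0.07, adjusted p = 2.5e-08). In resting cells it stood at 33.6, 32.0 and 28.9 CPM with siEhd1, against 53.3, 52.0 and 54.4 CPM with siControl (-0.76, SE 0.08, adjusted p = 5.7e-07). The libraries thus went with their siRNA labels in both states. All 10 macrophage markers examined were at or above 1 CPM in every group. In resting cells 6 of the 10 fell with siEhd1 and 0 rose (14.2% of all tested genes were called lower). Their summed level was 20060 to 21460 CPM in resting siEhd1 cells and 24190 to 24870 CPM in resting siControl cells. Lyz2 held the largest part of that sum (means 11310 and 14230 CPM), while the means of Adgre1 (2232 and 2013 CPM) and Cd163 (39.3 and 34.6 CPM) were not lower with siEhd1. Summed markers of neutrophils, dendritic cells, lymphocytes, and erythroid and mast cells reached at most 4.21, 1.96, 1.097 and 1.495 CPM in any library, with Retnlg, Cd3e, Nkg7, Ncr1, Hba-a1 and Hbb-bs listed at 0 throughout. Stromal and endothelial markers (8 genes) summed to 14.5 to 21.4 CPM in resting siEhd1 cells and 26.9 to 27.9 CPM in resting siControl cells. Most of this gap lay in 1 gene, Kdr (means 14.6 and 24.3 CPM). The highest mean of the others in a resting group was 1.35 CPM (Col1a1). After LPS the sums were 39.1 to 48.5 CPM with siEhd1 and 32.3 to 50.7 CPM with siControl. The part of these shifts in the results on resting cells was not tested, and in bulk RNA fewer cells of a type and less RNA per cell cannot be told apart.

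In resting macrophages most of the class I loading genes were lower with siEhd1, to differing degrees. Of the 10 genes, 9 fell, 0 rose and 1, B2m, did not pass the test, with levels between 64.9% (Nlrc5) and 93.1% (B2m) of siControl cells. Over all tested genes 14.2% were called lower in this comparison and 14.0% higher (28.2% in either direction). The median log2 fold change of the 10 was -0.30, against -0.02 over all tested genes. The libraries of the groups did not overlap for the same 9 genes, a pattern seen in the lower direction for 22.7% of tested genes.

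After LPS the decreases that passed the test were those of the peptide transporter. Of the 10 genes, 2 fell with siEhd1, Tap1 and Tap2, and 8 did not pass the test, while 4.10% of all tested genes were called lower and 4.44% higher (8.54% in either direction). The median log2 fold change of the 10 was -0.13, against -0.0045 over all tested genes. Libraries did not overlap for 4 genes, H2-K1, Tap1, Tap2 and Psmb8, a pattern seen in the lower direction for 12.6% of tested genes.

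**Figure D1:**
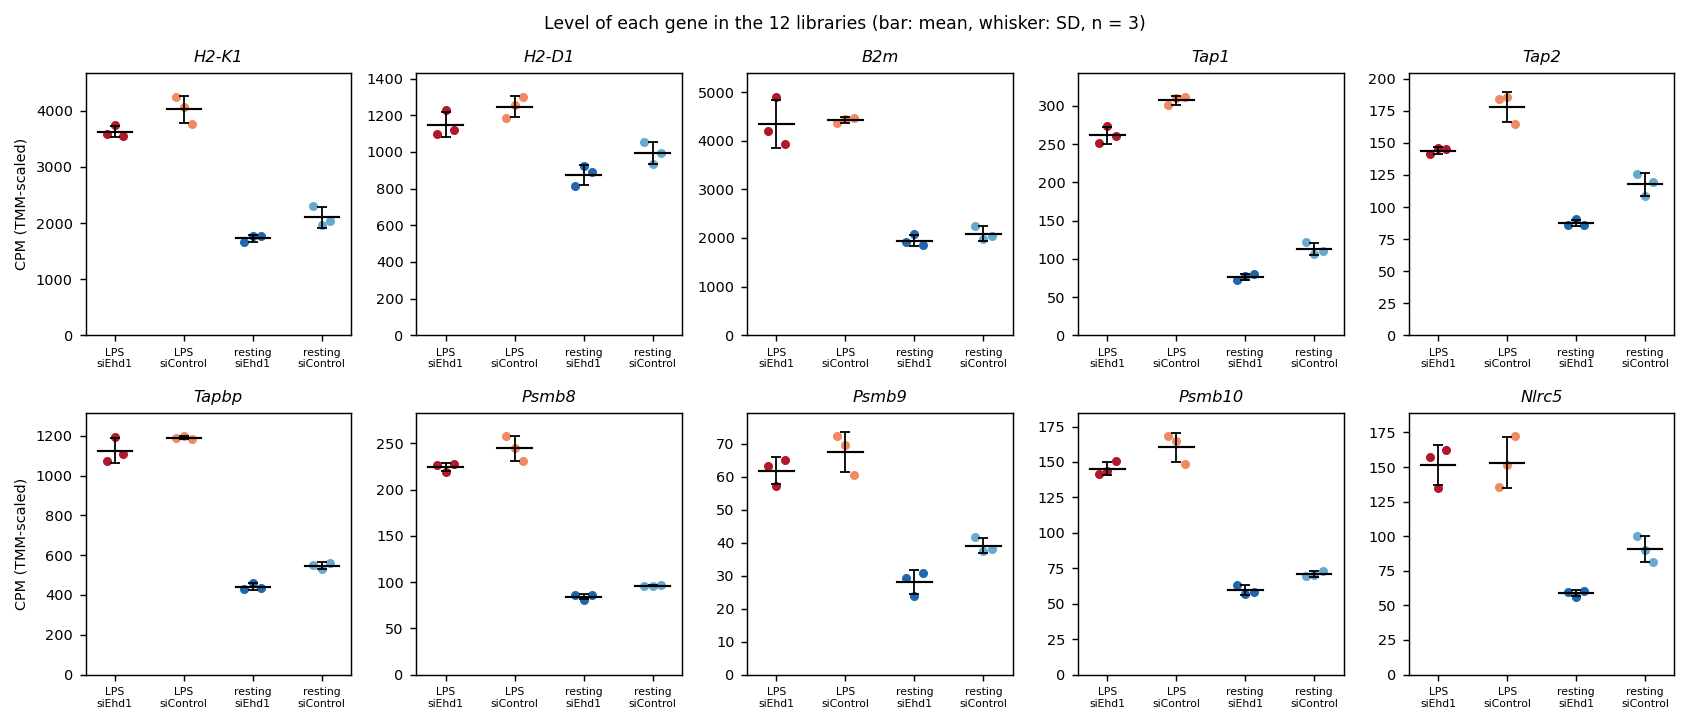
Level of each of the 10 genes in CPM (TMM-scaled, linear axis from 0) in the 12 libraries, with LPS-treated siEhd1, LPS-treated siControl, resting siEhd1 and resting siControl cells from left to right. Points are libraries, bars are means and whiskers are SD (n = 3); the LPS-treated libraries lie above the resting ones for every gene, and the resting siEhd1 libraries lie below the resting siControl libraries for all but B2m.

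Both subunits of the peptide transporter fell with siEhd1 in both states. Tap1, which forms the transporter with Tap2, was at 71.8, 77.4 and 79.7 CPM in resting siEhd1 cells, against 122, 106 and 110.5 CPM in resting siControl cells (log2 fold change -0.56, SE 0.06, adjusted p = 5.9e-07). After LPS it was at 251.5, 273 and 260.5 CPM with siEhd1, against 301, 310.3 and 312 CPM with siControl (-0.23, SE 0.06, adjusted p = 0.011). In each state all siEhd1 libraries were below all siControl libraries. The call after LPS was lost without the first LPS-treated siEhd1 library (adjusted p = 0.077), and over the alternatives tried it ranged from 0.0052 to 0.077. Tap2 was at 86.1, 90.5 and 86.3 CPM in resting siEhd1 cells, against 126, 108 and 119 CPM in resting siControl cells (-0.43, SE 0.06, adjusted p = 2e-05). After LPS Tap2 was at 141, 146 and 145 CPM with siEhd1, against 184, 186 and 165 CPM with siControl (-0.31, SE 0.06, adjusted p = 0.0018). The siEhd1 libraries of Tap2 lay close together and under every siControl library in both states.

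Tapbp, the tapasin that bridges transporter and heavy chain, fell in resting cells. It was at 428, 460 and 435.5 CPM with siEhd1, against 552, 529 and 562 CPM with siControl (log2 fold change -0.31, SE 0.05, adjusted p = 0.00023), with no overlap. After LPS it was at 1075, 1194 and 1107 CPM with siEhd1, against 1190, 1197 and 1183 CPM with siControl (-0.08, SE 0.05, adjusted p = 0.43), and the second siEhd1 library lay among the siControl libraries.

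The inducible proteasome subunits, which alter the cuts that produce class I peptides, all fell in resting cells, Psmb9 most. Psmb9 was at 29.4, 23.9 and 30.7 CPM in resting siEhd1 cells, against 41.8, 37.5 and 38.1 CPM in resting siControl cells (log2 fold change -0.48, SE 0.09, adjusted p = 0.00068). Psmb10 was at 63.5, 57.1 and 58.0 CPM in resting siEhd1 cells, against 69.8, 69.9 and 73.0 CPM in resting siControl cells (-0.25, SE 0.06, adjusted p = 0.0029). Psmb8 was at 85.8, 80.8 and 85.7 CPM in resting siEhd1 cells, against 95.5, 96.0 and 97.0 CPM in resting siControl cells (-0.19, SE 0.05, adjusted p = 0.0083). For each of the 3 subunits every resting siEhd1 library was below every resting siControl library, and the siControl libraries of Psmb8 lay close together. After LPS Psmb9 was at 63.2, 57.2 and 64.9 CPM with siEhd1, against 72.2, 69.7 and 60.5 CPM with siControl (-0.13, adjusted p = 0.42). Psmb10 after LPS was at 142, 144 and 150.5 CPM with siEhd1, against 168, 164.5 and 149 CPM with siControl (-0.14, adjusted p = 0.13), and passed the test without the third LPS-treated siControl library (adjusted p = 0.035). Psmb8 after LPS was at 226, 219 and 228 CPM with siEhd1, against 258, 245 and 231 CPM with siControl (-0.12, adjusted p = 0.14). Psmb8 alone of the 3 had libraries that did not overlap after LPS, without passing the test.

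Of the class I molecule's own chains, the heavy chains fell in resting cells and the light chain did not pass the test. H2-K1 was at 1659, 1769 and 1768 CPM in resting siEhd1 cells, against 2311, 1958 and 2043 CPM in resting siControl cells (log2 fold change -0.28, SE 0.07, adjusted p = 0.0037). H2-D1 was at 815, 923 and 889 CPM in resting siEhd1 cells, against 1052, 934 and 995 CPM in resting siControl cells (-0.18, SE 0.06, adjusted p = 0.04). The highest H2-D1 library with siEhd1 lay just under the lowest with siControl, and the call was lost without the first or the third library of either resting group (adjusted p = 0.18 and 0.076 for the siControl libraries, 0.20 and 0.066 for the siEhd1 libraries). B2m was at 1912, 2080 and 1850 CPM in resting siEhd1 cells, against 2256, 1972 and 2044 CPM in resting siControl cells (-0.10, SE 0.08, adjusted p = 0.33), and the groups overlapped.

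After LPS none of the 3 chains passed the test. H2-K1 was at 3588, 3750 and 3558 CPM with siEhd1, against 4247, 4070 and 3761 CPM with siControl (log2 fold change -0.15, SE 0.07, adjusted p = 0.20), with the siEhd1 libraries all lower. H2-D1 was at 1100, 1227 and 1120 CPM with siEhd1, against 1186, 1256 and 1299 CPM with siControl (-0.12, adjusted p = 0.31), with overlap. B2m was at 4203, 4897 and 3942 CPM with siEhd1, against 4364, 4446 and 4470 CPM with siControl (-0.03, adjusted p = 0.89), and the siEhd1 libraries lay on both sides of the siControl libraries. Of 100-base windows in the transcripts, 0.957% in H2-K1 and 3.59% in H2-D1 also occur in other class I genes such as H2-Q5, H2-Q10 and H2-Q1. Some reads counted for H2-K1 and H2-D1 could come from those genes, and the share of reads was not measured.

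Nlrc5, which activates class I promoters, had the lowest share of its control level in resting cells. It was at 59.7, 56.1 and 60.3 CPM in resting siEhd1 cells, against 100.1, 89.9 and 81.3 CPM in resting siControl cells (log2 fold change -0.62, SE 0.10, adjusted p = 0.00031), with no overlap. After LPS it was at 157, 135 and 162 CPM with siEhd1, against 135.5, 151 and 172 CPM with siControl (-0.02, SE 0.09, adjusted p = 0.95), and the libraries were interleaved.

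**Figure D2:**
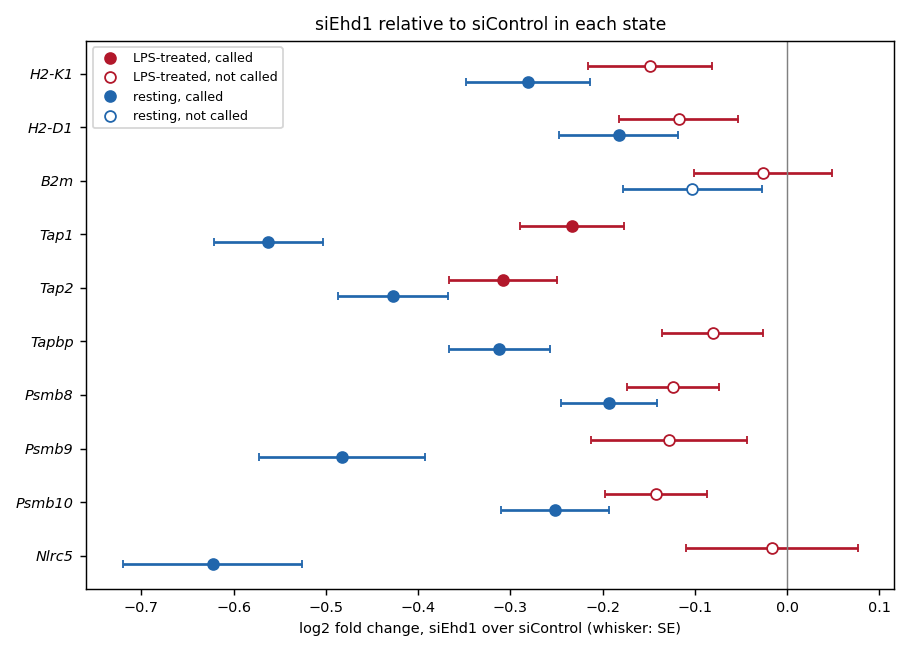
Log2 fold change of siEhd1 over siControl for each gene, in LPS-treated (red, upper) and resting (blue, lower) cells, with SE as whiskers; filled points passed the edgeR test and open points did not. Tap1 and Tap2 are filled in both states, B2m in neither, and Nlrc5 has the widest distance between the states.

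The difference between the siEhd1 effects in LPS-treated and resting cells was itself tested. Ehd1 rose with LPS, by 3.54 on the log2 scale with siControl and 3.26 with siEhd1. LPS-treated siEhd1 cells thus held more Ehd1 (mean 302 CPM) than resting siControl cells (53.2 CPM). The part of this in the differences was not tested. Of the 10 genes, 2 had a difference above 0, Tap1 and Nlrc5, and 0 had one below, where 3.12% of all tested genes were called above and 2.93% below (6.04% in either direction). For Nlrc5 the effect was 0.61 higher after LPS on the log2 scale (SE 0.13, adjusted p = 0.017), and this call was retained under all 17 alternatives (adjusted p from 0.00019 to 0.049). For Tap1 it was 0.33 higher (SE 0.08, adjusted p = 0.018). The Tap1 call was lost without the first resting siControl library (adjusted p = 0.065) or the first resting siEhd1 library (0.07), and with a replicate block within each state (0.054). Psmb9 had a difference as large as that of Tap1 with more spread (0.35, SE 0.12, adjusted p = 0.11). Tapbp had 0.23 (SE 0.08, adjusted p = 0.084, and 0.028 with DESeq2). The other 6 genes had differences from 0.06 (H2-D1) to 0.13 (H2-K1), none of which passed the test.

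LPS raised all 10 genes with either siRNA, where 32.9% of all tested genes were called higher with siEhd1 and 34.8% with siControl. The median log2 fold change of the 10 was 1.22 with siEhd1 (all tested genes -0.02) and 1.01 with siControl (all tested genes -0.01), and the 2 comparisons share no library. Every LPS-treated library was above every resting library with the same siRNA for all 10 genes, a pattern seen for 35.2% of tested genes with siEhd1 and 35.5% with siControl. On the log2 scale Tap1 rose most, by 1.78 with siEhd1 (SE 0.06, adjusted p = 2.8e-16) and 1.45 with siControl (SE 0.06, adjusted p = 6e-15), and H2-D1 least, by 0.39 with siEhd1 (SE 0.06, adjusted p = 1.9e-05) and 0.33 with siControl (SE 0.06, adjusted p = 0.00014). In siControl cells Psmb8 (1.35), Psmb10 (1.18), Tapbp (1.12) and B2m (1.08) rose by more than H2-K1 (0.94), Psmb9 (0.79), Nlrc5 (0.76) and Tap2 (0.60). In siEhd1 cells Psmb8 (1.42), Nlrc5 (1.36), Tapbp (1.35) and Psmb10 (1.29) came after Tap1, so that Nlrc5 stood higher in this order than with siControl. Resting and LPS-treated libraries were deposited in separate tables, and handling that differed between them cannot be told apart from LPS.

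**Figure D3:**
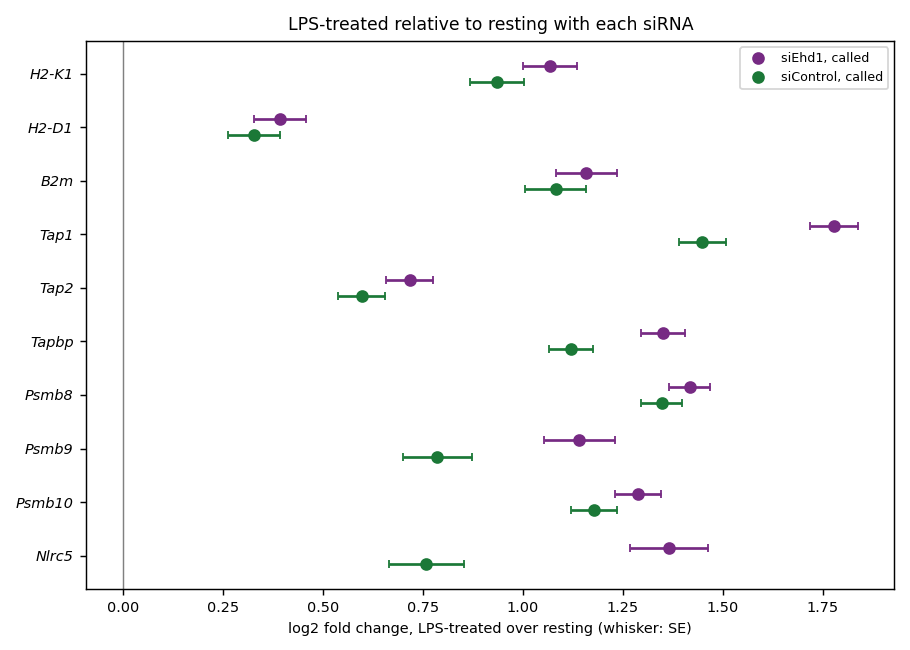
Log2 fold change of LPS-treated over resting cells for each gene, with siEhd1 (purple, upper) and siControl (green, lower), with SE as whiskers; all points passed the edgeR test. Tap1 has the highest and H2-D1 the lowest value with each siRNA. The siEhd1 point lies to the right of the siControl point for every gene, furthest for Nlrc5.

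Levels per kilobase of annotated exon ranked the genes with B2m first in every group. This order depends on the exon lengths used. In plain CPM B2m (2091) and H2-K1 (2104) were close in resting siControl cells. B2m averaged 5055 ± 573.9 CPM per kb in LPS-treated siEhd1 cells, 5147 ± 64.6 in LPS-treated siControl cells, 2264 ± 138 in resting siEhd1 cells and 2431 ± 172 in resting siControl cells (SD, n = 3 each). H2-K1 came second (1236 ± 35.2, 1370.3 ± 83.7, 589.5 ± 21.5 and 716 ± 62.7 CPM per kb in the same order), then H2-D1 (446 ± 26.5, 484 ± 22.1, 339.5 ± 21.5 and 385 ± 22.96) and Tapbp (310.2 ± 17.0, 328 ± 1.93, 122 ± 4.59 and 151 ± 4.68). The heavy and light chains thus stood above the loading chaperone, and the rest lay under 100 CPM per kb in every group. Tap1 stood above Tap2 after LPS, at 47.8 ± 1.99 against 38.1 ± 0.716 CPM per kb with siEhd1 and 56.2 ± 1.07 against 47.2 ± 3.12 with siControl. In resting cells the order was the other way round, at 13.9 ± 0.738 for Tap1 against 23.2 ± 0.661 for Tap2 with siEhd1 and 20.6 ± 1.47 against 31.2 ± 2.33 with siControl. Nlrc5 and Psmb9 shared the last places: in resting siControl cells they stood at 10.6 ± 1.11 and 10.7 ± 0.635 CPM per kb and in LPS-treated siControl cells at 18.0 ± 2.17 and 18.4 ± 1.68, within their spread. The ratio of H2-D1 to B2m per kb was 0.0885 ± 0.00570 in LPS-treated siEhd1 cells, 0.0939 ± 0.00315 in LPS-treated siControl cells, 0.150 ± 0.00924 in resting siEhd1 cells and 0.159 ± 0.00349 in resting siControl cells, lower in every LPS-treated library than in every resting library. The ratio of H2-K1 to B2m was 0.246 ± 0.0203, 0.266 ± 0.0193, 0.261 ± 0.0165 and 0.294 ± 0.00486 in the same order.

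The ratio of each inducible proteasome subunit to the constitutive subunit it replaces was lower in every resting siEhd1 library than in every resting siControl library. Psmb8 over Psmb5, the chymotrypsin-like pair, was 0.394 ± 0.0267 in resting siEhd1 cells and 0.513 ± 0.0351 in resting siControl cells (CPM per kb over CPM per kb, SD, n = 3 each). Psmb9 over Psmb6 was 0.154 ± 0.0201 in resting siEhd1 cells and 0.226 ± 0.0272 in resting siControl cells, and Psmb10 over Psmb7 was 1.84 ± 0.0825 in resting siEhd1 cells and 2.47 ± 0.0266 in resting siControl cells. After LPS the libraries of the groups overlapped for each pair, with Psmb10 over Psmb7 at 3.04 ± 0.223 with siEhd1 and 3.55 ± 0.258 with siControl. Psmb8 over Psmb5 after LPS was 0.483 ± 0.0255 with siEhd1 and 0.482 ± 0.00376 with siControl, and Psmb9 over Psmb6 was 0.212 ± 0.0149 with siEhd1 and 0.228 ± 0.0160 with siControl. With siControl, LPS left Psmb8 over Psmb5 and Psmb9 over Psmb6 within the resting spread while Psmb10 over Psmb7 was higher. Psmb5 (log2 fold change 1.43, adjusted p = 5e-14) and Psmb6 (0.77, adjusted p = 2.2e-10) rose about as much as their inducible counterparts and Psmb7 rose by 0.66 (adjusted p = 2.5e-08). In resting cells the log2 fold changes with siEhd1 were -0.19 (Psmb8), -0.48 (Psmb9) and -0.25 (Psmb10). Those of the constitutive subunits were 0.19 (Psmb5, edgeR adjusted p = 0.038), 0.06 (Psmb6, 0.45) and 0.17 (Psmb7, 0.065). The lower resting ratios of Psmb8 and Psmb10 thus hold a part from each side. How often ratios of other gene pairs separate these groups was not measured. The size of each ratio depends on the exon lengths used, and the ratios were not tested.

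**Figure D4:**
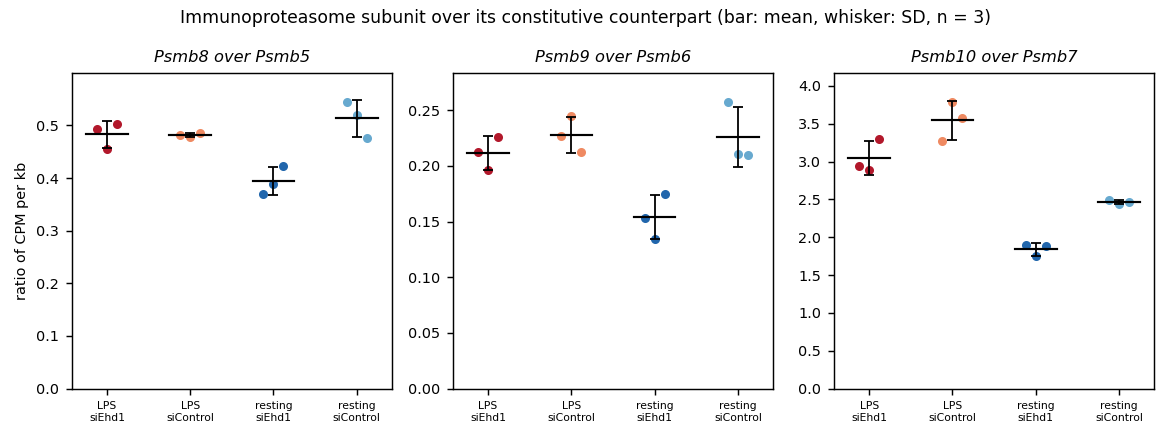
Ratio of the CPM per kb of each immunoproteasome subunit to that of its constitutive counterpart in the 12 libraries (linear axes from 0), with LPS-treated siEhd1, LPS-treated siControl, resting siEhd1 and resting siControl cells from left to right. Points are libraries, bars are means and whiskers SD (n = 3); for all 3 pairs the resting siEhd1 libraries lie below the resting siControl libraries.

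Set beside the genes of the same pathway, lower levels in resting siEhd1 cells were seen for some other heavy chains and for interferon genes. Of 12 partners in class I assembly, 4 fell and 1 rose with siEhd1 in resting cells (median 0.03), where 14.2% of all tested genes were called lower and 14.0% higher. The number called was between 1 and 4 when 1 of the 6 libraries was left out, so the count is not apart from that share. Tapbpl, a tapasin relative that edits peptides, fell by 0.38 on the log2 scale (SE 0.06, adjusted p = 0.00013), with 17.4 ± 0.367 CPM in siEhd1 cells and 22.6 ± 0.836 CPM in siControl cells. Tapbpl was also lower after LPS (-0.22, adjusted p = 0.016), a call lost without the first LPS-treated siEhd1 library or the third LPS-treated siControl library (highest adjusted p = 0.096). The resting calls of the trimming peptidases Erap1 (-0.19, adjusted p = 0.037) and Lnpep (-0.19, adjusted p = 0.034) and of the chaperone Pdia3 (0.14, adjusted p = 0.043) were each lost under 7 of 12 alternatives. The translocon subunit Sec61a1 fell in resting cells (-0.18, adjusted p = 0.012), a call lost without the third resting siEhd1 library (0.053).

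Of the other class I heavy chain genes, 13 of 22 were tested, and 6 fell and 0 rose in resting cells (median -0.33). Over all tested genes 14.2% were called lower in this comparison and 14.0% higher. Of the 13, 3 were called without the second resting siEhd1 library (4 without the first library of either group). H2-T24, a non-classical heavy chain, was at 42.5 ± 1.76 CPM in resting siEhd1 cells and 80.2 ± 1.65 CPM in resting siControl cells (log2 fold change -0.91, SE 0.06, adjusted p = 2.8e-09). After LPS it was at 171 ± 0.598 CPM with siEhd1 and 179.5 ± 11.7 CPM with siControl (-0.07, adjusted p = 0.50), and the difference of 0.85 between the effects passed the test (SE 0.08, adjusted p = 3.5e-06). H2-T23, which encodes the Qa-1 molecule, fell in resting cells (-0.42, SE 0.06, adjusted p = 1.2e-05) and differed likewise (0.34, SE 0.08, adjusted p = 0.012). H2-Q4, by contrast, fell in both states (resting -0.57, SE 0.08, adjusted p = 1.8e-05, LPS-treated -0.38, SE 0.07, adjusted p = 0.0027), and its difference between states did not pass the test (0.19, adjusted p = 0.34). H2-Q6, H2-Q7, H2-Q8, H2-Q9 and H2-T22 are listed at 0 in all 12 libraries, and how reads shared among near-identical class I genes were counted is not given in the sources used here, so values of this family are uncertain.

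Of 19 constitutive proteasome subunits and activators, 3 rose and 3 fell in resting siEhd1 cells (median 0.10), close to the 14.0% and 14.2% of all tested genes, and 2 were called without the first resting siControl library or without the first resting siEhd1 library. The regulator subunits Psme1 (-0.19, SE 0.05, adjusted p = 0.0059) and Psme2 (-0.25, SE 0.06, adjusted p = 0.005), which open the proteasome and are themselves interferon-induced, fell. Psmb6 (0.06, adjusted p = 0.45) and Psmb7 (0.17, adjusted p = 0.065) did not pass, and Psmb5 (0.19, adjusted p = 0.038) passed but lost its call under 5 of 12 alternatives. After LPS 0 of the 19 were called with siEhd1, where 8.54% of all tested genes were called in either direction. LPS raised all 19 in siControl cells (median 0.75), where 34.8% of all tested genes were called higher.

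Among 26 tested transcription factors and interferon signalling genes that act upstream of class I genes, 13 fell and 1 rose in resting siEhd1 cells (median -0.18). Over all tested genes 14.2% were called lower in this comparison and 14.0% higher. Of the 26, 9 were called without the first resting siControl library. Irf7, an interferon regulatory factor, was at 177 ± 6.75 CPM in resting siEhd1 cells and 326 ± 24.1 CPM in resting siControl cells (log2 fold change -0.88, SE 0.07, adjusted p = 1.3e-08). Stat2, which carries the interferon signal to the nucleus, fell as well (-0.60, SE 0.07, adjusted p = 1.1e-06). The difference between states passed the test for Irf7 (0.81, adjusted p = 1.7e-05) and Stat2 (0.64, adjusted p = 0.00024). After LPS 2 genes of the list were lower with siEhd1, where 4.10% of all tested genes were called lower. Jak2, a receptor kinase, was 1 of the 2, at 263 ± 8.85 CPM with siEhd1 and 363 ± 16.3 CPM with siControl (-0.46, SE 0.06, adjusted p = 1.7e-05).

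Of 28 core interferon-stimulated genes, 27 fell in resting siEhd1 cells (median -0.70), where 14.2% of all tested genes were called lower. After LPS 2 fell (median 0.03), where 4.10% of all tested genes were called lower, and this count is not apart from that share. Between the states 21 had a difference above 0 (median of the differences 0.71), where 3.12% of all tested genes were called above. The count after LPS was 0 to 3 when 1 of the 6 libraries was left out. The class I loading genes moved in the same direction in resting cells by a smaller median, -0.30. Class II genes, which present peptides from outside the cell, gave 1 lower and 0 higher of 11 in resting cells (median -0.17, 0 to 3 called when 1 library was left out). That count is not apart from the 14.2% of all tested genes called lower. LPS lowered 7 and raised 1 of the 11 in siControl cells, where 34.0% of all tested genes were called lower and 34.8% higher. Ciita, the activator of class II genes, was among those that fell with LPS (-2.67, adjusted p = 5.7e-09).

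**Figure D5:**
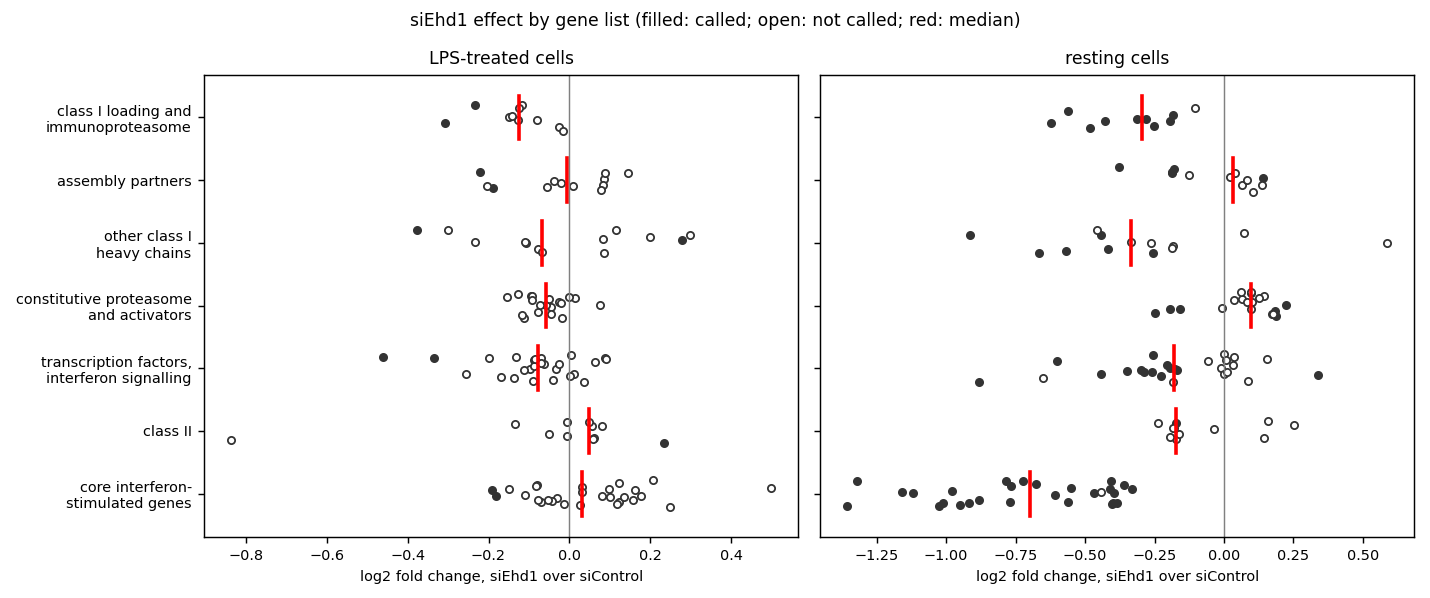
Log2 fold change of siEhd1 over siControl for each tested gene of the class I loading set and the 6 related lists, in LPS-treated (left) and resting (right) cells, with horizontal axes of different range; filled points passed the edgeR test and red bars are medians. In resting cells the core interferon-stimulated genes have the lowest median (-0.70). The constitutive proteasome list (0.10) and the assembly partners (0.03) have medians above 0.

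Over the 12 libraries the log2 level of each of the 10 genes followed the mean of the other 9 with a Pearson r from 0.936 (H2-D1) to 0.999 (Tap1). These values describe a shared profile that includes the step with LPS, and carry no test. The mean z-score of the 10 genes was 0.718, 0.825 and 0.764 in LPS-treated siEhd1 cells, 1.03, 1.08 and 0.995 in LPS-treated siControl cells, -1.26, -1.20 and -1.18 in resting siEhd1 cells and -0.429, -0.724 and -0.615 in resting siControl cells. Among 9492 other genes of sufficient level, those with the highest r to this mean were Pag1 (0.998), Itgal, Tapbpl, Abca1 and Cybb (0.997 each) and Skil (0.996). The genes most like Nlrc5 were Ermard (0.989), H2-T24 and Parp14 (0.987 each).

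The 3′ UTRs of the 10 genes were searched for GCCTTGT, a 7-base sequence that had been picked from these data as frequent in genes lower with siEhd1. It was found in 0 of the 10 genes and in 1827 of 11246 tested genes with an annotated 3′ UTR (16.2%). The count was not tested, and with 10 genes a count of 0 cannot be told apart from that share.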

How the data were processed

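PolyA RNA was sequenced from 12 libraries, and the authors deposited raw counts per gene in 2 tables, 1 for resting and 1 for LPS-treated cells, with 0 columns left unused here. The submitters' processing notes list STAR 2.7.6a (genome mm10) and featureCounts 2.20.0, and also cutadapt, Trim Galore 0.6.3, FastQC 0.10.1, R 4.4.2 and DESeq2 1.46.0. For the annotation, strand setting and multi-mapping reads the sources used here state nothing.

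All 12 libraries entered 1 edgeR 4.0.16 fit (R 4.3.3, limma 3.58.1) with TMM factors, robust quasi-likelihood dispersions, 1 mean per group and 8 residual degrees of freedom. The filterByExpr function (minimum count 10, minimum total 15) left 12164 of 17270 genes with a count, and the genes removed held at most 0.039% of a library. The 5 contrasts were adjusted by Benjamini-Hochberg over all tested genes at 0.05. SE is the absolute log2 fold change over the square root of F. The fit was also run on counts simulated from the resting siControl means, with a common spread and no LPS step. That run does not show how the fit performs on these data. No libraries of a group held the same values, and all pairs differed beyond counting noise (chi-square over its degrees of freedom from 3.10 to 24.8). Total counts per library bound the precision of low genes only, as the lowest level of the 10 genes in any library was 23.9 CPM.

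The 10 genes, the related lists and the motifs were chosen with earlier results of these data known. Named genes were the 10, Ehd1, up to 4 called members of each list with the smallest p, 5 proteasome genes whether called or not, and the genes most correlated with the 10 (6) or with Nlrc5 (3) among those with at least 5 CPM in a group. Alternatives were RLE size factors, no filter, DESeq2 1.42.0, limma-voom, a replicate block, the compared libraries alone, and leaving out each library. Some genes of the lists are not reported here by name.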

Additional observations from a re-analysis of the deposited data

Results flagged for a closer look

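Of the 10 class I loading genes, 2 had a siEhd1 effect that differed between the states by the test of the difference itself. For Nlrc5 the log2 effect was -0.02 in LPS-treated cells and -0.62 in resting cells, a difference of 0.61 (SE 0.13, edgeR adjusted p = 0.017). For Tap1 it was -0.23 in LPS-treated cells and -0.56 in resting cells, a difference of 0.33 (SE 0.08, edgeR adjusted p = 0.018). The Tap1 difference did not pass the test without the first resting siControl library (0.065) or the first resting siEhd1 library (0.07), or with a replicate block within each state (0.054). No group had the 4 samples that a search for single outlying samples needs.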

How the results depend on the processing

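The count of class I loading genes called kept within 1.5 times its value under every alternative for siEhd1 in resting cells (8 to 9 of 10 genes) and for LPS with either siRNA (10 of 10). For siEhd1 after LPS it was 1 to 3 when 1 library was left out and 2 otherwise, with 608 to 975 genes called in all; the lowest values, 1 and 608, came without the first LPS-treated siEhd1 library. For the difference between the states it was 1 to 2 when 1 library was left out, with 456 to 786 genes called in all (3 and 827 with DESeq2): 1 and 473 without the first resting siControl library, and 1 and 456 without the first resting siEhd1 library. Over all genes, leaving out 1 library gave 2354 to 3162 calls for siEhd1 in resting cells, 7887 to 8256 for LPS with siControl and 7637 to 7784 for LPS with siEhd1. Same-numbered libraries of a state did not deviate together (r from -0.167 to 0.185), so the replicate numbers were not taken as pairs. With a replicate block, 1 gene of the 10 was called for the difference between the states, as Tap1 was lost (adjusted p = 0.054), and 8 for siEhd1 in resting cells, as H2-D1 was lost (0.079). The causes of these shifts were not tested.

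The sign turned, without a call at that setting, for Nlrc5 after LPS (-0.097 to 0.079 over the fits that leave out 1 library, 0.079 without the third siControl library and 0.061 without the second siEhd1 library), B2m after LPS (-0.12 to 0.0398, the highest without the third siEhd1 library), the B2m difference between the states (-0.0176 to 0.14, the lowest without the second LPS-treated siEhd1 library), Psmb6 after LPS (-0.045 to 0.036, the highest without the first siControl library) and Ciita in resting cells (-0.31 to 0.043, the highest without the first siControl library). Another scaling (RLE) moved the median of all genes by less than 0.01. With 3 libraries a group, a change the size of that of B2m in resting cells (-0.10, SE 0.08) was not detectable.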
